A study of Mus musculus with 2 samples.

Results

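The nuclear genes for subunits of the mitochondrial respiratory chain and of ATP synthase were compared between 2 arrays of cultured dermal cells from newborn C57BL/6 mice. Cells from dorsal skin were grown for 24 h and then transfected for 48 h, at 10 nM, with siRNAs against β-catenin (1 array) or with a control siRNA (1 array). Small interfering RNAs (siRNAs) direct the cleavage of messenger RNAs that match them. β-catenin, the product of Ctnnb1, joins cadherins to the cytoskeleton and also carries the canonical Wnt signal to TCF/LEF transcription factors in the nucleus. Both groups were transfected, and untransfected cells were not analysed here. The labels do not say how many pups or cultures stood behind each array, or how many siRNA sequences were used. Members were all genes whose symbol begins with Ndufa, Ndufb, Ndufc, Ndufs, Ndufv, Uqcr, Cox4, Cox5, Cox6, Cox7, Cox8 or Atp5, with Sdha, Sdhb, Sdhc and Sdhd. These were 89 of the 19938 genes that have at least 1 probe set of their own, and 43 of them belong by symbol to complex I, 4 to complex II, 8 to complex III, 17 to complex IV and 17 to complex V. The prefix Ndufa also takes in 7 assembly factors (Ndufaf1 to Ndufaf7), and Ndufa4 is counted by its symbol with complex I although it is now regarded as a subunit of complex IV.

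Complexes I and II pass electrons from NADH and succinate to ubiquinone, complex III passes them on to cytochrome c, and complex IV passes them to oxygen. Complexes I, III and IV pump protons across the inner membrane, and ATP synthase, complex V, uses the proton gradient to make ATP. Most subunits are encoded in the nucleus and assembled with a few that mitochondrial DNA encodes. Fibroblasts in culture draw on this pathway and on glycolysis for ATP.

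Values were log2 signals after robust multi-array average (RMA), which equalises the distributions of both arrays, so each difference is relative to the other genes and a general change in RNA amount is not visible. With 1 array per group there was no replicate error, so no difference could be set against the variation between cultures. In bulk RNA, fewer cells of a type and less RNA per cell cannot be told apart. Ctnnb1 itself had a log2 value of 9.34 after β-catenin siRNA and 10.48 after control siRNA, which is 45.2% of the control signal. Genes were called kept if the higher of their 2 values reached 5.13, the median of all gene means, which left 10197 genes. Of the markers of other cell types, 4 of 8 keratinocyte genes were kept and all 4 were higher after β-catenin siRNA, among them Krt5 (8.65 after β-catenin siRNA and 7.64 after control siRNA). The keratinocyte genes not kept were dim and differed by -0.55 (Krt15), 0.22 (Krt1), 0.0 (Krt10) and 0.005 (Trp63). The summed log2 level over all 8 keratinocyte genes was 46.5 on the β-catenin siRNA array and 44.2 on the control array. Such a sum includes dim genes and is not an amount of RNA. The 7 dermal fibroblast markers were all kept and 4 were higher, with a summed log2 level of 79.5 after β-catenin siRNA and 76.5 after control siRNA. The 4 higher genes differed by 1.29 (Lum), 0.84 (Dcn), 0.75 (Pdgfra) and 0.20 (Col3a1). The 3 lower genes differed by -0.065 (Col1a1), -0.06 (Vim) and -0.03 (Col1a2). The part that these marker differences have in the results below was not tested. None of 5 adipocyte and none of 4 macrophage markers was kept. Of 4 endothelial markers 1 was kept (Kdr, -0.51), and of 4 melanocyte markers 2 were kept (Pmel, -0.27, and Dct, -0.01). Kdr and Pmel passed the filter only through the control array, which fixed their direction. The other endothelial genes were dim and differed by 0.70 (Tek), 0.20 (Pecam1) and 0.0 (Cdh5). The other melanocyte genes were dim and differed by -0.44 (Tyr) and -0.34 (Mlana). Of 9 skeletal muscle markers only the actin gene Acta1 was kept (8.07 after β-catenin siRNA and 9.32 after control siRNA). The remaining muscle genes were dim and went both ways. Higher were Myog (0.41), Ckm (0.37) and Des (0.08). Lower were Myod1 (-0.22), Myh3 (-0.21), Myh8 (-0.12), Actn2 (-0.08) and Tnnt3 (-0.05).

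Genes of all 5 complexes were mostly slightly lower after β-catenin siRNA. Of the 89 members, 78 were kept, each with both values over the filter, and 65 of these (83.3%) were lower by some amount, against 52.8% of all kept genes. The median difference of the kept members was -0.18 on the log2 scale, or 88.2% of the control signal, and that of all kept genes was -0.02. The middle 50% of the members' differences ran from -0.28 to -0.08, against -0.16 to 0.13 for all kept genes. The shift was small for each gene. A decrease of at least 1.2-fold was found for 22 kept members (28.2%), against 13.7% of all kept genes, and an increase of that size for 0 members, against 11.7% of all kept genes. No kept member differed by 1.5-fold in either direction, a size that 1.84% of kept genes passed downwards and 2.76% upwards. Of the kept members, 42 (53.8%) had differences under -0.16, the lower quartile of all kept genes.

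**Figure D1:**
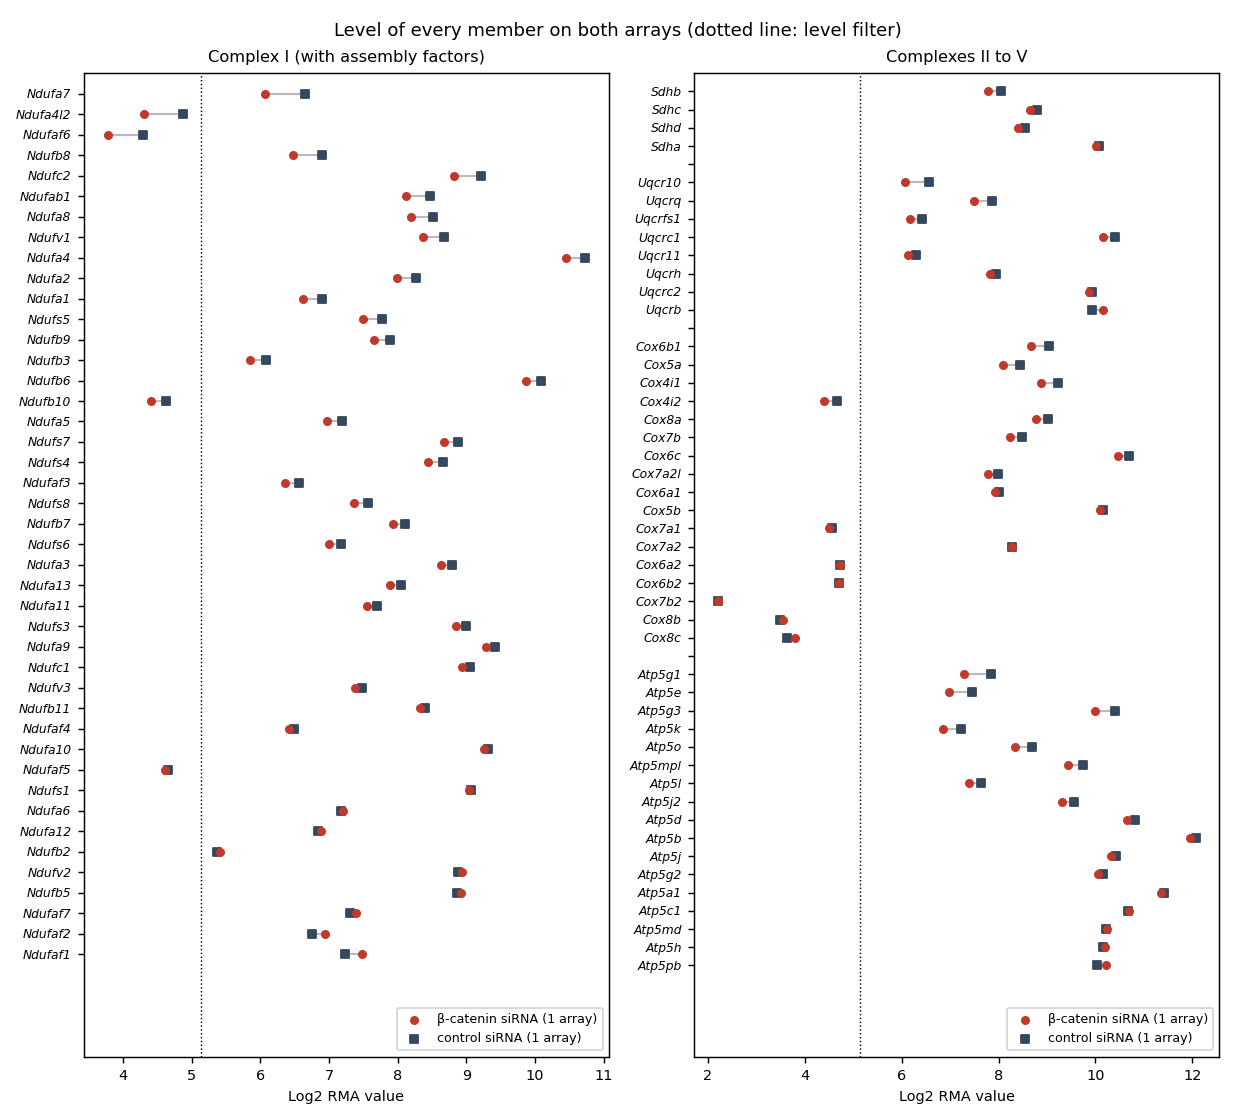
The horizontal axis gives the log2 RMA value of each member on the β-catenin siRNA array (circles) and on the control siRNA array (squares), with rows ordered by difference within each complex and the level filter as a dotted line. In most rows the circle lies left of the square, and the gap is at most 0.58 (Ndufa7).

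The shift was seen at most signal levels. Among the 4985 genes in the upper quartile of level (the mean of both arrays), 55.7% were lower by any amount and 12.7% at least 1.2-fold lower. Of the 63 kept members in that quartile, 53 (84.1%) were lower by any amount and 17 (27.0%) at least 1.2-fold lower. Between levels of 6 and 10 the median difference of the members stayed between -0.23 and -0.21 in each unit of level, whereas that of all kept genes lay between -0.04 and -0.01. Above this range the gap was narrower. The 14 members with levels from 10 to 11 had a median of -0.09, and all kept genes in that range had a median of -0.02.

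**Figure D2:**
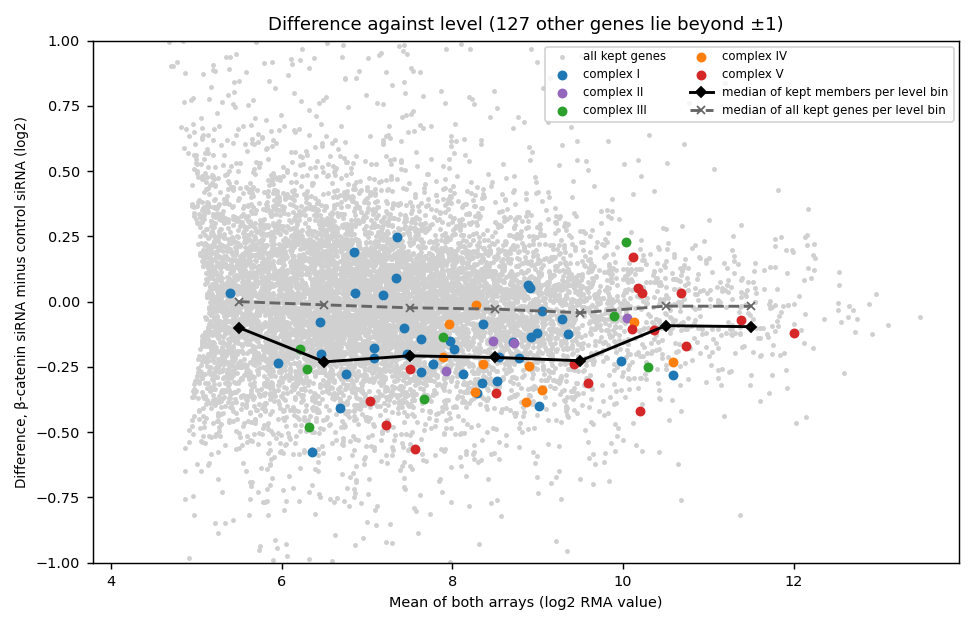
Each point is a kept gene, with the mean of both arrays on the horizontal axis and the difference, β-catenin siRNA minus control siRNA, on the vertical axis (both log2). Medians per unit of level are joined by lines, and the line of the members lies below that of all kept genes in each bin. The lowest and highest bins hold 2 members each, and 127 genes beyond ±1 are not drawn.

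By complex, the kept members' medians lay close together. They were -0.18 for complex I (39 genes), -0.16 for complex II (4 genes), -0.21 for complex III (8 genes), -0.24 for complex IV (10 genes) and -0.17 for complex V (17 genes). The complex IV median was -0.09 over all 17 members, which adds 7 dim isoforms, and the complex III median was -0.13 with a stricter level filter. No test of a difference between complexes was possible. All kept members of complexes II and IV were lower on their brightest probe sets, although the other probe set of Cox7a2l in complex IV was higher. The 13 kept members that were higher comprised 8 of complex I, 1 of complex III and 4 of complex V, among them Atp5pb, which was lower on its other probe set.

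**Figure D3:**
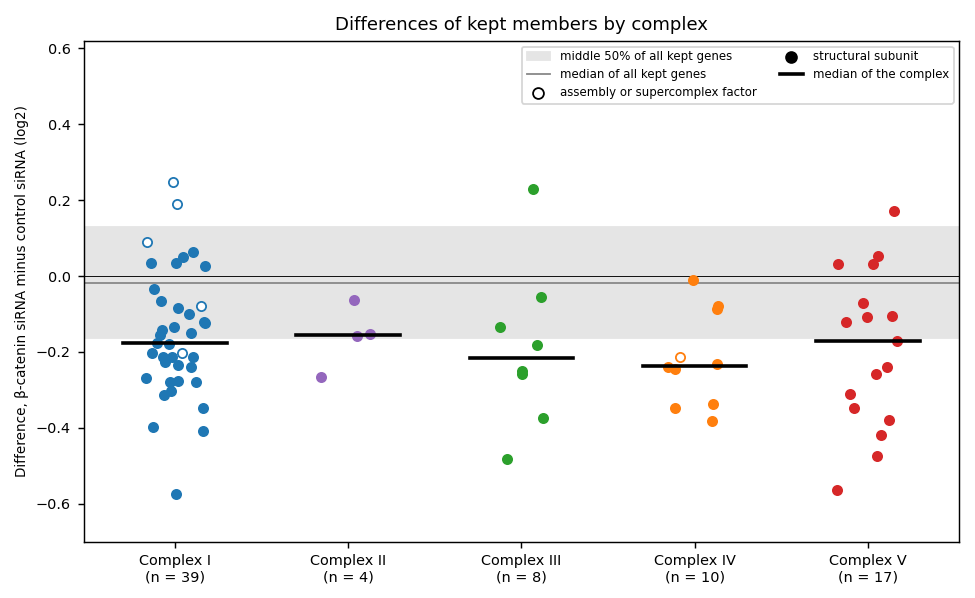
The vertical axis gives the log2 difference, β-catenin siRNA minus control siRNA, of each kept member, with the median of each complex as a bar. The grey band holds the middle 50% of all kept genes. All 5 medians lie below 0, from -0.24 to -0.16.

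The promoters of the lowest kept member of each complex are shown, because members of all complexes were lower together, with 1 further promoter that holds an NRF1 motif. NRF1 is a transcription factor known for its binding sites in front of respiratory chain genes. The windows hold 300 bases around the annotated gene start and come from RefSeq on GRCm38.p6. They lie at chr17:33824322-33824621 (Ndufa7, plus strand), chr4:140961021-140961320 (Sdhb, plus strand), chr11:4704295-4704594 (Uqcr10, minus strand), chr7:30626065-30626364 (Cox6b1, minus strand), chr11:96075582-96075881 (Atp5g1, minus strand) and chr5:108434350-108434649 (Atp5k, minus strand). Capitals mark matches of the hypoxia response core ACGTG in Ndufa7 and Atp5g1. In Ndufa7 and at 1 place in Atp5g1, overlapping matches on both strands make up the longer marked stretch CACGTG. Capitals also mark an ETS motif in Sdhb and Cox6b1, and an NRF1 and an ETS motif in Atp5k. The window of Uqcr10 held none of the motifs searched.
Ndufa7: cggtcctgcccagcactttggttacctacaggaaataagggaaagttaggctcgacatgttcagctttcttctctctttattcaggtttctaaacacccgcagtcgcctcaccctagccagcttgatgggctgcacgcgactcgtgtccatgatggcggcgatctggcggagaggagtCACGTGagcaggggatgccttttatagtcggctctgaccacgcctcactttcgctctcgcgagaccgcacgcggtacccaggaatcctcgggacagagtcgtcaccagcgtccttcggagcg
Sdhb: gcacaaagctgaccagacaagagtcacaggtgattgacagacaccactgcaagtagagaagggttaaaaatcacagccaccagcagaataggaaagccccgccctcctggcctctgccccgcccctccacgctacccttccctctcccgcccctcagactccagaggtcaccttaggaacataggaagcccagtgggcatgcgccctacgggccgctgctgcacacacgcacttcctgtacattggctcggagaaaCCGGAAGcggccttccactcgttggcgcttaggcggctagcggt
Uqcr10: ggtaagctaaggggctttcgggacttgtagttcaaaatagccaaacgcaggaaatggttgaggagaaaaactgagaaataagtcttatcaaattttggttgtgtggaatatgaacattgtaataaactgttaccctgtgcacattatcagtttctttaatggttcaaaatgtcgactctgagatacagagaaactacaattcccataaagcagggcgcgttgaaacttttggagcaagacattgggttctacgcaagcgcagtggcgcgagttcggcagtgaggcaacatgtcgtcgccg
Cox6b1: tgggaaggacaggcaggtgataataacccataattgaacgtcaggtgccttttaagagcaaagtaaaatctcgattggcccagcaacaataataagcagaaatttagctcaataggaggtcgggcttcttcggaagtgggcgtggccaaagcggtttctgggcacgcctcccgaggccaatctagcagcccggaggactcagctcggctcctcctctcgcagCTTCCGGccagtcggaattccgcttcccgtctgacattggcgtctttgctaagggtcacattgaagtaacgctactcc
Atp5g1: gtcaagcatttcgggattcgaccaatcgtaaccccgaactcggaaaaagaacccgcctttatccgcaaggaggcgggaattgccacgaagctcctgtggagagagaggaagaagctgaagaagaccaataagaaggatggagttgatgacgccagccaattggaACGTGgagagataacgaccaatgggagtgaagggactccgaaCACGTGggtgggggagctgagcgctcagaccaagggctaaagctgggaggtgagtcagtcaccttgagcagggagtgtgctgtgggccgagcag
Atp5k: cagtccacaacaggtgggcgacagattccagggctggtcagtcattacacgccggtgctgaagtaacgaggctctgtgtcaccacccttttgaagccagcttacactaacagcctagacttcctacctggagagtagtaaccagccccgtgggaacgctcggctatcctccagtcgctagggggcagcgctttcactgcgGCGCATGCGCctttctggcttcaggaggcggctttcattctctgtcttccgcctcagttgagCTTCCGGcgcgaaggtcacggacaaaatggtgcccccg

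Of the 89 members, 73 had a promoter entry, and for genes with several windows the one listed first was searched on both strands. The palindromic NRF1 motif was in 7 of the 73 windows (9.59%), against 2.2% of 8279 windows of kept genes and 0.977% of all 27025 windows. A longer NRF1 form with 1 open base, which can overlap it, was in 9 windows (12.3%), against 6.14% of kept genes and 2.57% of all. The YY1 motif, a site of another factor known from respiratory chain genes, was in 4 windows (5.48%, against 1.85% of kept genes and 0.699% of all), and the ETS motif CCGGAAG, which GABP also binds, was in 17 (23.3%, against 19.6% of kept genes and 9.12% of all). The hypoxia response core ACGTG was in 18 windows (24.7%, against 26.9% of kept genes and 19.7% of all). The TCF/LEF motif CTTTGA, the site of β-catenin's DNA-binding partners, was in 7 (9.59%, against 11.2% of kept genes and 16.2% of all). Medians of kept members with and without a motif were compared without a test. With the palindromic NRF1 motif the median was -0.12 (6 genes), and without it -0.18 (61 genes). With the longer NRF1 form it was -0.10 (9 genes), and without it -0.19 (58 genes). With the YY1 motif it was -0.20 (4 genes), and without it -0.18 (63 genes). With the ETS motif it was -0.18 (17 genes), and without it -0.17 (50 genes). With the hypoxia response core it was -0.20 (15 genes), and without it -0.17 (52 genes). With the TCF/LEF motif it was -0.18 (6 genes), and without it -0.18 (61 genes). A match in such a window is a description of its letters and not a measured binding site.

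In complex I, subunits of the arm that oxidises NADH differed among themselves. The N module, which takes electrons from NADH, had 10 kept genes with a median difference of -0.14, of which 7 were lower. Ndufa7, an accessory subunit of this arm, had the lowest difference of all kept members, with 6.07 after β-catenin siRNA and 6.64 after control siRNA, or 67.1% of the control signal (1.49-fold lower). Ndufv1, which binds NADH and the flavin cofactor, had 8.37 after β-catenin siRNA and 8.67 after control siRNA (1.23-fold lower). Its partner Ndufv2, an iron-sulphur protein, had 8.93 after β-catenin siRNA and 8.88 after control siRNA, and Ndufs1, the large iron-sulphur subunit, had 9.03 after β-catenin siRNA and 9.06 after control siRNA. The 3 core subunits of this module therefore spanned differences from -0.30 to 0.05. Ndufa2 differed by -0.28, Ndufs4 by -0.21, Ndufs6 by -0.18 and Ndufv3 by -0.10, while Ndufa6 and Ndufa12 differed by 0.03 each.

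The Q module, which passes electrons to ubiquinone, was more uniform. All 5 of its kept genes were lower, between -0.21 and -0.12, and none by 1.2-fold. Ndufs7, an iron-sulphur subunit next to the quinone site, had 8.67 after β-catenin siRNA and 8.88 after control siRNA. Ndufs8, another iron-sulphur subunit, had 7.37 after β-catenin siRNA and 7.57 after control siRNA, and Ndufs3, a core scaffold subunit, had 8.85 after β-catenin siRNA and 8.99 after control siRNA. Ndufa5 differed by -0.21 and Ndufa9, at the junction with the membrane, by -0.12.

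Subunits of the membrane arm, which holds the proton pumps, were lower in 16 of 18 kept cases. The median was -0.20, and 6 genes passed 1.2-fold. Ndufb8 had 6.48 after β-catenin siRNA and 6.89 after control siRNA (1.33-fold lower), and Ndufc2 had 8.82 after β-catenin siRNA and 9.22 after control siRNA (1.32-fold lower). Ndufab1, the mitochondrial acyl carrier protein, which also serves fatty acid and lipoate synthesis, had 8.12 after β-catenin siRNA and 8.47 after control siRNA (1.27-fold lower). The other genes at least 1.2-fold lower here were Ndufa8 (-0.31), Ndufa1 (-0.28) and Ndufs5 (-0.27). The 2 higher genes of the arm were Ndufb5 (8.92 after β-catenin siRNA and 8.86 after control siRNA) and Ndufb2, which differed by 0.03. Its remaining 10 kept genes differed by between -0.24 (Ndufb9) and -0.07 (Ndufa10), and Ndufb10 was dim on both arrays (4.40 after β-catenin siRNA and 4.62 after control siRNA).

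Assembly factors of complex I among the members went both ways. Of the 5 kept factors 3 were higher and 2 lower, and their median was 0.09. Ndufaf1, which helps to build the membrane arm, had the highest difference of all members, with 7.47 after β-catenin siRNA and 7.23 after control siRNA (1.19-fold higher). Ndufaf2, a chaperone of late assembly, had 6.95 after β-catenin siRNA and 6.76 after control siRNA, and the methyltransferase Ndufaf7 differed by 0.09. Ndufaf3 and Ndufaf4, which act together on early intermediates, differed by -0.20 and -0.08. Ndufaf6 was dim on both arrays (3.78 after β-catenin siRNA and 4.30 after control siRNA), as was Ndufaf5 (4.62 after β-catenin siRNA and 4.66 after control siRNA). The difference between factors and subunits was not tested.

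Ndufa4 and its paralogue Ndufa4l2, a gene known to be induced by hypoxia, were both lower. Ndufa4 had 10.44 after β-catenin siRNA and 10.73 after control siRNA (1.21-fold lower). Ndufa4l2 had 4.30 after β-catenin siRNA and 4.87 after control siRNA (1.49-fold lower), and both of these values lay under the level filter, so that this fold rests on dim signals.

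Complex II, succinate dehydrogenase, links the chain to the tricarboxylic acid cycle and has no subunit from mitochondrial DNA. Its 4 genes were all lower. Sdhb, the iron-sulphur subunit, had 7.79 after β-catenin siRNA and 8.06 after control siRNA, or 83.1% of the control signal. Sdhc and Sdhd, the membrane anchors, had differences of -0.16 and -0.15. Sdha, the flavoprotein that oxidises succinate, had 10.01 after β-catenin siRNA and 10.07 after control siRNA, the smallest difference of the 4.

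Of the 8 kept genes of complex III 7 were lower, and differences ran from -0.48 to 0.23. Uqcr10, a small subunit, had 6.08 after β-catenin siRNA and 6.56 after control siRNA (1.40-fold lower), and Uqcrq, another small subunit, had 7.48 after β-catenin siRNA and 7.86 after control siRNA (1.30-fold lower). Uqcrfs1, the Rieske iron-sulphur protein that passes electrons towards cytochrome c1, had 6.17 after β-catenin siRNA and 6.43 after control siRNA. Of the core proteins, Uqcrc1 had 10.16 after β-catenin siRNA and 10.41 after control siRNA, and Uqcrc2 had 9.87 after β-catenin siRNA and 9.93 after control siRNA. Uqcr11 differed by -0.18 and the hinge protein gene Uqcrh by -0.13. Uqcrb, a subunit near the quinone site, was the exception, with 10.15 after β-catenin siRNA and 9.92 after control siRNA. Its other 2 probe sets were higher by 0.04 and 0.01, far less than the one that stands for the gene.

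In complex IV, cytochrome c oxidase, the 10 kept genes were all lower on their brightest probe sets, by between -0.38 and -0.01, and the tissue-restricted isoforms were dim. Cox7c, another widely expressed subunit, had only probe sets shared with another gene, which were higher by between 0.01 and 0.02, and is not among the members. Cox6b1, which faces the intermembrane space, had 8.67 after β-catenin siRNA and 9.05 after control siRNA (1.30-fold lower). Cox5a had 8.10 after β-catenin siRNA and 8.44 after control siRNA (1.27-fold lower), and Cox4i1, the regulatory subunit that binds ATP, had 8.88 after β-catenin siRNA and 9.22 after control siRNA (1.26-fold lower). Cox8a, Cox7b and Cox6c had differences from -0.25 to -0.23. Cox7a2l, a factor that joins complexes III and IV into supercomplexes, had 7.78 after β-catenin siRNA and 7.99 after control siRNA. Its other probe set was higher by 0.11. Differences were smaller for Cox6a1 (-0.09), the zinc-binding subunit Cox5b (-0.08) and Cox7a2 (-0.01). None of the 7 restricted isoforms was kept. Cox4i2, the isoform of lung and of hypoxic cells, had 4.39 after β-catenin siRNA and 4.65 after control siRNA. Of the isoforms of heart and skeletal muscle, Cox7a1 had 4.50 after β-catenin siRNA and 4.56 after control siRNA, Cox8b differed by 0.08, and Cox6a2 was listed at 4.73 on both arrays. The isoforms known from testis were Cox8c, which differed by 0.16, and Cox6b2 and Cox7b2, each listed with 1 value for both arrays (4.70 and 2.21). Equal values on both arrays were listed for 5.86% of all genes and 1.37% of kept genes.

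In complex V the c ring, the rotor that turns as protons pass, held the lowest gene (Atp5g1) and the third lowest (Atp5g3). The genes Atp5g1, Atp5g2 and Atp5g3 encode the same mature c subunit with different import sequences. Atp5g1 had 7.28 after β-catenin siRNA and 7.84 after control siRNA, or 67.6% of the control signal (1.48-fold lower). Atp5g3 had 9.99 after β-catenin siRNA and 10.41 after control siRNA (1.34-fold lower), and Atp5g2 had 10.06 after β-catenin siRNA and 10.16 after control siRNA. The 3 genes for the same protein were thus all lower, by differences from -0.56 to -0.10.

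Genes of the catalytic F1 head differed less, with the exception of its smallest subunit. Atp5a1 and Atp5b, the α and β subunits that form the catalytic sites, had differences of -0.07 and -0.12, with 11.35 and 11.94 after β-catenin siRNA and 11.42 and 12.07 after control siRNA. The central stalk gene Atp5c1 (γ) differed by 0.03 and Atp5d (δ) by -0.17. Atp5e (ε) had 6.98 after β-catenin siRNA and 7.45 after control siRNA (1.39-fold lower). In the peripheral stalk, which holds the head still, Atp5o, the subunit known for oligomycin sensitivity, had 8.33 after β-catenin siRNA and 8.68 after control siRNA (1.27-fold lower). Atp5j differed by -0.11, Atp5h by 0.05, and Atp5pb had 10.21 after β-catenin siRNA and 10.04 after control siRNA, the highest difference in complex V on its brightest probe set, although its other probe set differed by -0.16. Of the membrane subunits around the ring, Atp5k had 6.84 after β-catenin siRNA and 7.22 after control siRNA (1.30-fold lower), Atp5mpl had 9.43 after β-catenin siRNA and 9.74 after control siRNA (1.24-fold lower), Atp5l and Atp5j2 differed by -0.26 and -0.24, and Atp5md differed by 0.03.

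Second probe sets were available for 17 members, which had 42 probe sets in all, and the brightest stood for the gene elsewhere in the text. Probe sets of a gene read the same RNA on the same 2 arrays, so their agreement is no independent check of a direction. Sequence shared between probe sets of a gene was not examined. All probe sets of a gene were lower for 12 members, all were higher for 3 (Uqcrb, Atp5h and Atp5md), and the direction was mixed for 2. Within a gene, differences of its probe sets varied with a pooled SD of 0.14. The agreement was close for Atp5g1, with differences of -0.56 and -0.56, and for Atp5g2, with 3 probe sets that differed by -0.10 each. Atp5l had 6 probe sets, all lower, between -0.58 and -0.26. The dimmer probe set differed more in some genes and less in others. Uqcr11 differed by -0.18 on its brightest and by -0.70 on its other probe set (5.34 after β-catenin siRNA and 6.04 after control siRNA), and Ndufa11 differed by -0.14 and -0.57. Cox7b differed by -0.24 on its brightest and by -0.08 on its other probe set, and Ndufc1 by -0.12 and -0.04. The genes with mixed directions were Cox7a2l (-0.21 and 0.11) and Atp5pb (0.17 and -0.16), so neither has a settled direction here. Many short genes of this pathway have processed pseudogenes, and signal that such copies share with a probe set was not tested.

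**Figure D4:**
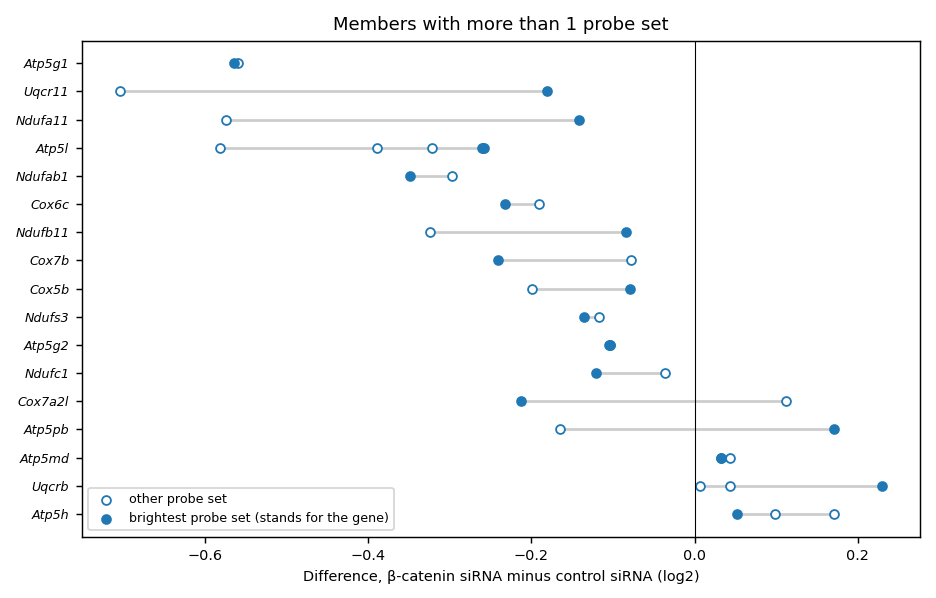
Each row is a member with more than 1 probe set, and each point is the log2 difference, β-catenin siRNA minus control siRNA, of a probe set. Filled points are the brightest probe set, which stands for the gene, and 12 of the 17 rows lie wholly below 0.

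Across the 78 kept members, there was a weak tendency for longer genes to have differences nearer 0 or above it. The correlation of the difference with the logarithm of the gene's span in RefSeq was r = 0.34 (Spearman's rho = 0.33), and with mean level it was r = 0.20 (rho = 0.20). Over all kept genes, 10188 of which had a span, these values were r = 0.08 (rho = 0.13) for span and r = -0.06 (rho = -0.06) for level. These are descriptions across genes that share the same 2 arrays, and genes are not independent replicates.

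Only 2 protein-coding genes of mitochondrial DNA had single-symbol probe sets, and they did not share the direction of the nuclear members. mt-Co2, which encodes a core subunit of complex IV and is listed as COX2, had 12.09 after β-catenin siRNA and 11.90 after control siRNA, and its other probe set differed by 0.19 as well. mt-Nd3, which encodes a core subunit of complex I and is listed as ND3, had 11.42 after β-catenin siRNA and 11.28 after control siRNA, and its other probe set differed by 0.12. All 4 probe sets were higher, by less than 1.2-fold, and the difference from the nuclear members was not tested.

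Other genes of the pathway were described from lists by how many kept genes were at least 1.2-fold lower or higher. Of 37 kept assembly factors of all complexes, which include 5 members, 10 were lower and 1 higher by that size, with a median of -0.05. Over all kept genes 13.7% were lower and 11.7% higher by 1.2-fold, and the counts of each list below are to be read against these shares. Uqcc2, an assembly factor of complex III, was 1.54-fold lower, with 5.56 after β-catenin siRNA and 6.18 after control siRNA, and Ecsit (-0.53) of complex I, Ttc19 (-0.42) of complex III and Coa4 (-0.41) of complex IV followed. Of 9 kept subunits and carriers chosen as lying outside the symbol rule, 4 were lower and 1 higher, with a median of -0.16. The list was written with older symbols, and Atp5md and Atp5mpl in it proved to be members. Cyc1, cytochrome c1 of complex III, had 8.90 after β-catenin siRNA and 9.26 after control siRNA (1.29-fold lower). Higd1a, a factor of supercomplexes, differed by -0.39 and the electron carrier gene Etfb by -0.30. In the other direction, Etfa was the gene at least 1.2-fold higher (0.29), and Etfdh differed by 0.15.

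Of 23 kept genes of the tricarboxylic acid cycle and pyruvate entry, 5 were lower and 0 higher by 1.2-fold, with a median of -0.11. The largest differences were those of Pcx, pyruvate carboxylase (-0.45), Pdk1 and Pdk3, kinases that inhibit pyruvate dehydrogenase (-0.42 and -0.31), and the isocitrate dehydrogenase subunit gene Idh3a (-0.33). Of 11 kept genes in a list for coenzyme Q synthesis and function, 1 was 1.2-fold lower, Coq10a (-0.31), and the median was -0.09. Pdss2 (0.18), Coq7 (-0.19) and Coq9 (-0.16) came next in size. Pdss2 passed the level filter only through the β-catenin siRNA array (5.19, against 5.01 after control siRNA). None of 11 kept carrier and channel genes passed 1.2-fold, and their median was -0.09, with Slc25a1 (-0.21), Slc25a12 (-0.13), Vdac3 (-0.12) and Slc25a5 (-0.11) the largest.

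None of 16 kept regulators of mitochondrial genes and mitochondrial DNA passed 1.2-fold, and their median was 0.00. The largest differences were those of the helicase gene Twnk (0.22), of Gabpa (0.19) and Gabpb2 (0.18), which encode subunits of the ETS factor GABP, and of the polymerase gene Polg (-0.17). In a list of 10 genes of the mitochondrial response to hypoxia, which includes Ndufa4l2 and Cox4i2, 7 were kept and 5 of these were at least 1.2-fold lower, with a median of -0.39. Egln3, a prolyl hydroxylase, had 5.23 after β-catenin siRNA and 6.25 after control siRNA (2.03-fold lower), and Bnip3, a mitophagy receptor, had 7.97 after β-catenin siRNA and 8.54 after control siRNA (1.49-fold lower). Pdk1 and Higd1a, also in lists above, were the remaining genes of the largest 4. Lonp1 differed by -0.30, and the 2 kept genes of this list that were higher were Hif1a (0.14) and Bnip3l (0.12). Among the genes not kept, Epas1 was higher by 0.61, while Ndufa4l2 and Cox4i2 were lower, all on dim signals. The list was chosen with earlier results of these data known.

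**Figure D5:**
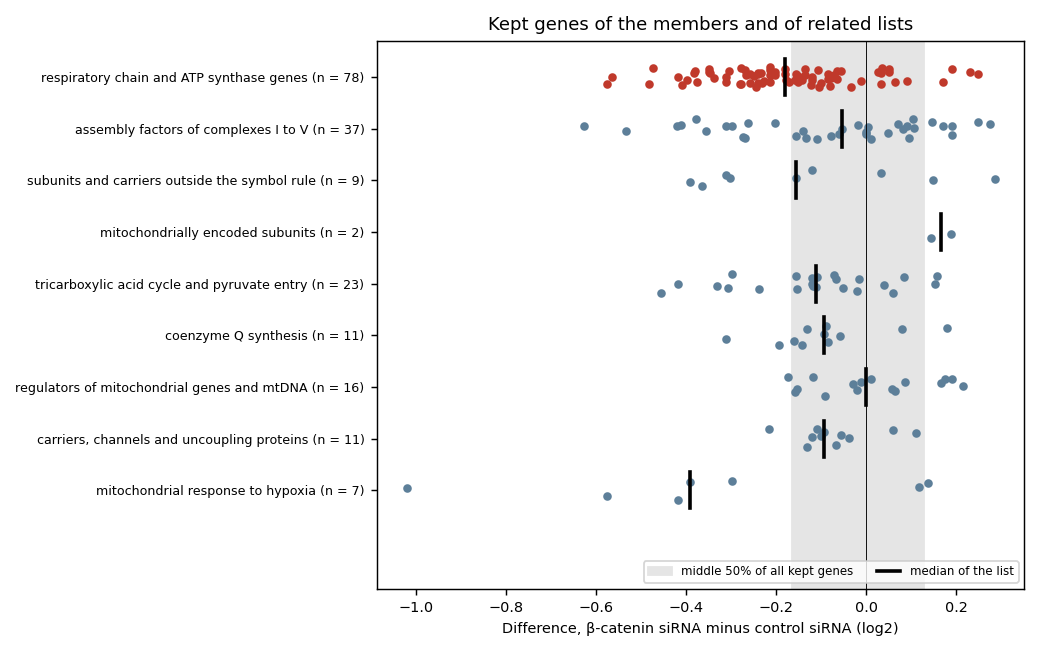
Each point is a kept gene and the horizontal axis gives its log2 difference, β-catenin siRNA minus control siRNA. Bars are medians, from -0.39 for the mitochondrial response to hypoxia (7 genes) to 0.17 for the mitochondrially encoded subunits (2 genes), with -0.18 for the 78 kept respiratory chain and ATP synthase genes.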

How the data were processed

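The deposited table holds log2 values of 28944 probe sets on 2 arrays, 1 per group, made by the authors with RMA per the submitters' processing notes. Labelling started from 300 ng of total RNA, per the labels' protocols. Software version and array genome build: not given in the sources used here. Accordingly, gene coordinates are not printed other than those of RefSeq promoter windows. The range of the values (0.485 to 13.5) is that of a log2 scale.

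Platform annotation gave 1 symbol for 21789 probe sets, several for 1621 and none for 5534. Of the single-symbol probe sets, 21698 were matched by gene ID to RefSeq GRCm38.p6, whose symbols were then used for them. Only single-symbol probe sets were used, and the brightest stood for a gene. The control value was subtracted from the β-catenin siRNA value, and no p-value or standard error was computed because there is no replicate. The number of arrays limits the precision, and no array-based detection call was used here.

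Genes were named if they were among the 3 lowest or 2 highest kept members of a complex, a core subunit, in an isoform set, among the 4 largest differences of a pathway list, or the target. Members and lists were chosen with earlier results of these data known. Other members are named to account for all of them, and some other list and marker genes to show both directions. The counting and centring steps were tested on simulated data. Alternatives were lowess centring (span 0.3), median centring, the mean of probe sets, 3 other level filters, structural subunits alone and platform symbols. Python 3.11.15, numpy 2.4.6, pandas 2.3.3, scipy 1.17.1 and statsmodels 0.14.6 were used.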

Additional observations from a re-analysis of the deposited data

How the results depend on the processing

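Each of 11 summary values (6 medians and 5 counts) was recomputed under 8 alternatives. All 48 alternative medians stayed below 0, and the median of all members ranged from -0.19 to -0.16. Members lower by any amount ranged from 56 to 71 and members at least 1.2-fold lower from 17 to 25, over lists of 66 to 89 members. No member reached 1.5-fold under any of the 8. Of the 88 alternative values, 4 moved, and the cause was not tested beyond how each alternative is built. The complex IV median was -0.086 without a level filter, which admits the 7 dim isoforms, and the complex III median was -0.13 with the stricter level filter, which leaves out its dimmer subunits. Members at least 1.2-fold higher numbered 2 after lowess centring and 1 after median centring, against 0, because centring moves all differences. No paired analysis was possible because each group has 1 array, and no replicate could be left out for the same reason. For dim genes such as Ndufa4l2, signal over background was not measured here.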

Other observations

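Genes for ribosomal proteins were described after the members' values were seen. Of 76 kept genes for mitochondrial ribosomal proteins (Mrpl, Mrps), which translate the mitochondrially encoded subunits, 52 were lower by any amount after β-catenin siRNA, 14 were at least 1.2-fold lower and 1 at least 1.2-fold higher, with a median difference of -0.12. Of 56 kept genes for cytosolic ribosomal proteins (Rpl, Rps), 30 were lower by any amount, 5 at least 1.2-fold lower and 2 at least 1.2-fold higher, with a median of -0.02. Over all kept genes 52.8% were lower by any amount, 13.7% at least 1.2-fold lower and 11.7% at least 1.2-fold higher.

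Probe sets that the annotation gives to several genes were left out of the comparison, and 6 of them include a respiratory chain gene. Those of Cox7c with the gene Gm12338 numbered 3 and were higher by between 0.01 and 0.02. Those of Ndufb4 with Ndufb4b numbered 2 and differed by -0.11 and -0.09. The one of Ndufs5 with its pseudogene differed by -0.05, against -0.27 for the probe set of Ndufs5 alone.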
